A study of Mus musculus with 13 samples.

Results

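The genes described here are Acta2, Actg2, Actc1, Myl9, Tgfb1i1 and Csrp1, 6 of the 34857 genes measured in Neuro2a cells, a mouse neuroblastoma line with neuron-like properties. They were taken by name as contractile actin and myosin genes, and they were picked because of their levels in these same libraries, so their differences between the groups are given as a description and support nothing. The name covers them only in part. Acta2, Actg2 and Actc1 encode muscle actins and Myl9 a myosin light chain, but Tgfb1i1 and Csrp1 encode LIM-domain proteins that bind the actin cytoskeleton and are neither actins nor myosins. All 6 had values in all 13 libraries.

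The study asked how Neuro2a cells that lived through a failure of their frozen storage differ from cells kept properly frozen. Experimental vials, with cells in 10% DMSO as cryoprotectant, sat in a vessel whose liquid nitrogen boiled away over 10 h and which then stood at 4 °C for 24 h, after which the vials went to -80 °C for 72 h. Control vials held the same cells in the same DMSO but remained in ordinary cryostorage, and cells of both groups were thawed at 37 °C and grown in the same serum-containing medium. Poly(A) RNA was sequenced from 4 experimental and 3 control libraries at passage 1, early after growth resumed, and from 3 experimental and 3 control libraries at passage 6, when the cells had a normal appearance. The labels name 1 cell line and no genotype difference, and they do not say whether libraries of a group come from separate vials or cultures, so a p-value here speaks only to how far these samples scatter, and that scatter may be technical. The label of the line was checked against its markers: all 14 listed neuroblastoma and sympathetic neuron markers reached 1 FPKM in at least 1 library (fragments per kilobase of transcript, scaled by library size, the deposited unit), and their summed level was 1181 to 1229 FPKM in experimental and 1346 to 1370 FPKM in control libraries at passage 1, and 1254 to 1301 FPKM in experimental and 1174 to 1216 FPKM in control libraries at passage 6. Of these markers, Nefm reached 1 FPKM only in passage 6 experimental libraries 2 and 3, at 1.54 and 1.22 FPKM. Both libraries also carried liver and brain transcripts.

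Actin filaments and myosin motors generate tension in muscle and, through nonmuscle forms, in every cell. Acta2, Actg2 and Actc1 are normally associated with smooth muscle of vessels, smooth muscle of gut and heart muscle, and Acta2 is also the classical marker of myofibroblasts. Many genes of this system are known targets of serum response factor (Srf), which binds promoter elements called CArG boxes together with coactivators of the myocardin family (Mrtfa, Mrtfb, Myocd), whose entry into the nucleus depends on the pool of unpolymerised actin.

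The upstream sequences of members with promoter entries are shown because the Srf element is the best known shared feature of these genes, and because the 3 largest increases at passage 1 fell on Acta2, Myl9 and Actg2. RefSeq windows on GRCm38.p6 matched 4 of the 6 members; Actg2 and Tgfb1i1 were not matched. Each line gives the 250 bases before the RefSeq transcription start in the gene's own direction. These starts differ from the gene spans given below, which are those of the GENCODE annotation: the Actc1 window lies wholly inside its span, and the Acta2 and Myl9 windows lie in part inside theirs. Capitals mark CArG boxes, here 10 bases that begin with CC and end with GG, with at least 5 of the 6 inner bases A or T.
Acta2, chr19:34255374-34255623, minus strand: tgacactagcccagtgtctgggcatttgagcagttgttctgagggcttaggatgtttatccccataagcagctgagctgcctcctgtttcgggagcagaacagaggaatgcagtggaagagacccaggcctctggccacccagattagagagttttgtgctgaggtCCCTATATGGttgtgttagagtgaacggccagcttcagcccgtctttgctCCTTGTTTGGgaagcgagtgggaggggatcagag
Actc1, chr2:114052876-114053125, minus strand: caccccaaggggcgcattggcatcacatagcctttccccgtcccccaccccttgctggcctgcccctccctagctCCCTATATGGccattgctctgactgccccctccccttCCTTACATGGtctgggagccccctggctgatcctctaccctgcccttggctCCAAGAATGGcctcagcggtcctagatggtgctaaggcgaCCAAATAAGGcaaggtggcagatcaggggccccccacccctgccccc
Myl9, chr2:156775214-156775463, plus strand: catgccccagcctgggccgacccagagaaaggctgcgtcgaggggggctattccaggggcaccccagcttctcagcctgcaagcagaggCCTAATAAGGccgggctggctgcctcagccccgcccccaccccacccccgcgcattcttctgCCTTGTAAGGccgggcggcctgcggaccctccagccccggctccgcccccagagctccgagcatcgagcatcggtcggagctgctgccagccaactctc

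The Acta2 window held 2 such boxes, CCCTATATGG at -84 to -75 and CCTTGTTTGG at -34 to -25, counted from the start. Actc1 held 4, of which CCAAATAAGG at -47 to -38 had all 6 inner bases A or T, and it had CCCTATATGG, the same letters as the Acta2 box, at -175 to -166. Myl9 held 2, CCTAATAAGG at -161 to -152, with all 6 inner bases A or T, and CCTTGTAAGG at -99 to -90. Neither of the 2 Csrp1 windows, chr1:135719813-135720062 and chr1:135728917-135729166 on the plus strand, held a match. Because the motif has the same form on both strands, 1 search covered both. Of 32851 mouse promoter windows of the same length, 8.59% held at least 1 match, 0.670% at least 2, and 1.47% a box with all 6 inner bases A or T. The motif CATTCC, known from muscle promoters as the binding sequence of TEAD factors, was present on either strand in 12.6% of windows; in Acta2 it lay on the opposite strand at -146 to -141. A match describes letters in these windows and not a bound site.

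Acta2, smooth muscle alpha-actin, spans chr19:34241090-34255590 on the minus strand (GRCm38). At passage 1 it was measured at 224, 216, 194 and 217 FPKM in experimental libraries, against 10.4, 15.0 and 12.8 FPKM in control libraries. Each experimental library lay far above each control library, with means of 213 ± 13.3 FPKM in experimental (SD, n = 4) and 12.7 ± 2.30 FPKM in control libraries (SD, n = 3), a ratio of means of 16.7. On the log2(FPKM + 1) scale the difference was 3.97 ± 0.11 (SE), the highest rank among the 12469 genes tested. At passage 6 Acta2 was at 85.4, 82.7 and 95.3 FPKM in experimental libraries, against 7.04, 6.64 and 10.9 FPKM in control libraries. The groups again lay apart, the ratio of means was 10.7 and the log2 difference of 3.30 ± 0.16 was still first in rank among 12458 genes. In bulk RNA a gene carried by a few cells at high level cannot be told apart from one raised in all cells, nor fewer cells of a type from less RNA per cell.

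Actg2, the smooth muscle gamma-actin (chr6:83512905-83536265, minus strand), was scarce in control cells. It stood at 15.3, 13.1, 10.8 and 11.95 FPKM in experimental libraries of passage 1, against 0.981, 1.24 and 0.823 FPKM in control libraries. All 4 experimental libraries were above all controls, and the log2 difference was 2.77 ± 0.12, with a ratio of means of 12.6. At passage 6 the values were 5.19, 3.04 and 4.11 FPKM in experimental libraries, against 0.457, 0.484 and 0.883 FPKM in control libraries, a log2 difference of 1.66 ± 0.17. The lowest experimental value was still above the highest control value, although the experimental libraries differed more among themselves, with a coefficient of variation of 26.1% at passage 6 and 15.1% at passage 1.

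Actc1, cardiac alpha-actin (chr2:114047282-114053548, minus strand), was the member with the lowest level. Its passage 1 values were 3.30, 2.43, 2.29 and 2.19 FPKM in experimental libraries and 0.570, 0.656 and 0.843 FPKM in control libraries. The groups did not overlap, the ratio of means was 3.70 and the log2 difference 1.07 ± 0.12, with experimental library 1 above the other 3. At passage 6 it was at 0.738, 0.278 and 0.738 FPKM in experimental libraries and 0.130, 0.422 and 0.302 FPKM in control libraries. There the groups overlapped, since experimental library 2 lay below control libraries 2 and 3. Actc1 did not reach the required 1 FPKM in 3 libraries and entered no fit at that passage. Actg2 at both passages and Actc1 at passage 1 passed this filter only through their experimental libraries.

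Myl9, the regulatory light chain of smooth muscle and nonmuscle myosin (chr2:156775420-156781658, plus strand), is the subunit whose phosphorylation switches the motor on. It was measured at 62.5, 54.7, 51.2 and 54.2 FPKM in experimental libraries of passage 1, against 5.36, 6.30 and 5.50 FPKM in control libraries. No experimental library came near the controls. Means were 55.7 ± 4.82 FPKM in experimental (SD, n = 4) and 5.72 ± 0.506 FPKM in control libraries (SD, n = 3), and the log2 difference was 3.07 ± 0.08, second in rank after Acta2. At passage 6 Myl9 was at 9.99, 11.2 and 12.4 FPKM in experimental libraries, against 1.88, 2.24 and 2.96 FPKM in control libraries. The groups stayed apart, with a ratio of means of 4.73 and a log2 difference of 1.86 ± 0.13.

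The LIM proteins moved less than Acta2, Actg2 and Myl9. Tgfb1i1, a focal adhesion adaptor related to paxillin and known as inducible by TGF-beta (chr7:128246812-128255699, plus strand), was at 9.07, 8.61, 7.72 and 9.32 FPKM in experimental libraries of passage 1, against 5.61, 6.23 and 6.25 FPKM in control libraries. At passage 6 it was at 4.58, 5.62 and 6.14 FPKM in experimental libraries, against 3.55, 3.52 and 3.76 FPKM in control libraries. Groups lay apart at both passages, and the log2 differences of 0.46 ± 0.07 and 0.48 ± 0.10 were the only pair among the members tested at both passages in which passage 6 was not the smaller. With experimental library 1 alone at passage 6, the library without liver markers, its difference was 0.27 and thus the smaller.

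Csrp1, a cysteine- and glycine-rich LIM protein that binds alpha-actinin and zyxin (chr1:135720061-135752232, plus strand), was abundant in every library. Its values were 113, 97.3, 123 and 126 FPKM in experimental libraries of passage 1, against 53.4, 53.6 and 55.2 FPKM in control libraries. The experimental libraries were all above the controls and more variable, and the log2 difference was 1.07 ± 0.09. At passage 6 the values were 39.4, 40.1 and 43.2 FPKM in experimental libraries, against 32.8, 33.3 and 33.1 FPKM in control libraries. The groups did not overlap, but the ratio of means was 1.24, against 2.13 at passage 1, and the log2 difference was 0.30 ± 0.05.

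**Figure D1:**
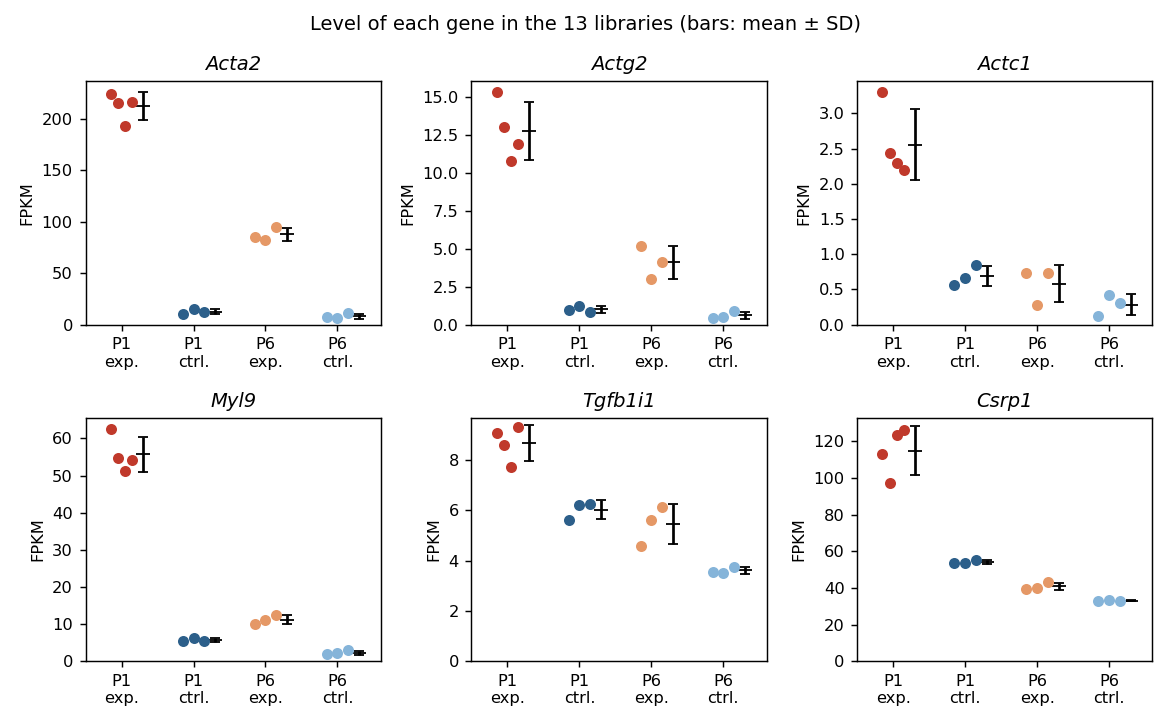
Points are FPKM of each gene in each library, with a linear axis from 0 for each gene; P1 and P6 are passages 1 and 6, exp. and ctrl. experimental and control libraries, and bars show mean ± SD. At passage 1 the 4 experimental libraries lie above the 3 controls for every gene, and at passage 6 Actc1 alone overlaps.

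At passage 1 the experimental libraries of all 6 members lay above every control, as for 15.8% of the 12469 genes tested, and at passage 6 those of 5 members did, as for 17.4% of 12458 genes. The members were chosen on these contrasts, so nothing is read from the counts. Over all 6 the median log2 difference was 1.92 at passage 1 and 1.07 at passage 6, beside medians of -0.05 and -0.04 over all tested genes.

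The log2 differences of low genes depended on the added 1 FPKM: with 5 and with 0.1 added instead, they were 1.56 and 3.54 for Actg2 and 0.41 and 1.75 for Actc1 at passage 1, and 0.69 and 2.59 for Actg2 and 1.14 and 2.21 for Myl9 at passage 6.

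The order of the 4 group means separated the members into a pair of patterns. In Acta2, Actg2 and Myl9 experimental cells at passage 6 were still above control cells at passage 1. In Actc1, Tgfb1i1 and Csrp1 they were below them, with overlapping ranges for Actc1 and Tgfb1i1. The passages were deposited as separate tables, so levels across them may carry differences of scaling as well as of expression. Compared within passages, the passage 6 difference minus the passage 1 difference was -0.67 ± 0.21 for Acta2, -1.11 ± 0.22 for Actg2, -0.77 ± 0.20 for Actc1, -1.21 ± 0.15 for Myl9, -0.77 ± 0.11 for Csrp1 and 0.02 ± 0.12 for Tgfb1i1 (log2 scale, ± SE).

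The members moved alike between groups but less so among libraries of the same group. After the mean of each group was removed from the 13 libraries, Pearson's r over the 15 pairs ranged from -0.28 to 0.81, with a median of 0.25 and 12 pairs above 0. Acta2 and Myl9 had the highest value, 0.81, followed by Myl9 with Tgfb1i1 at 0.64 and Actg2 with Actc1 at 0.63. Csrp1 was at 0.00 with Acta2 and at -0.28 with Actg2, and these correlations across few libraries share each library's depth and scaling and are descriptive only.

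Acta2 made up a visible minority of the actin transcripts of experimental cells. The 6 actin genes together summed to 2699 ± 88.0 FPKM in experimental (n = 4) and 2047 ± 13.4 FPKM in control libraries (n = 3) at passage 1, and to 1541 ± 74.8 FPKM in experimental and 1145 ± 6.32 FPKM in control libraries at passage 6 (SD, n = 3 each). Acta1, Acta2, Actc1 and Actg2 made up 8.65 ± 0.767% of that sum in experimental and 0.733 ± 0.116% in control libraries at passage 1. At passage 6 these muscle actins held 6.08 ± 0.222% in experimental and 0.828 ± 0.227% in control libraries, so the share stayed well apart between groups at both passages. Acta2 alone accounted for 7.90% in experimental and 0.622% in control libraries at passage 1, and for 5.69% in experimental and 0.715% in control libraries at passage 6.

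Actb and Actg1, the cytoplasmic actins of every cell, held the remainder. Their shares at passage 1 were 38.2 ± 0.979% and 53.2 ± 1.56% in experimental libraries and 40.5 ± 0.392% and 58.8 ± 0.278% in control libraries. The coding sequences of the 6 actins were 81.5% to 88.7% identical in GRCm38 transcripts, Acta2 and Actg2 at 84.2% with a longest identical run of 29 bases, and Acta2 and Actb at 82.8% with a run of 47 bases. How reads matching several actins were divided is not given in the sources used here, so the low values of Actc1 and Actg2 beside abundant actins are uncertain in part.

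**Figure D2:**
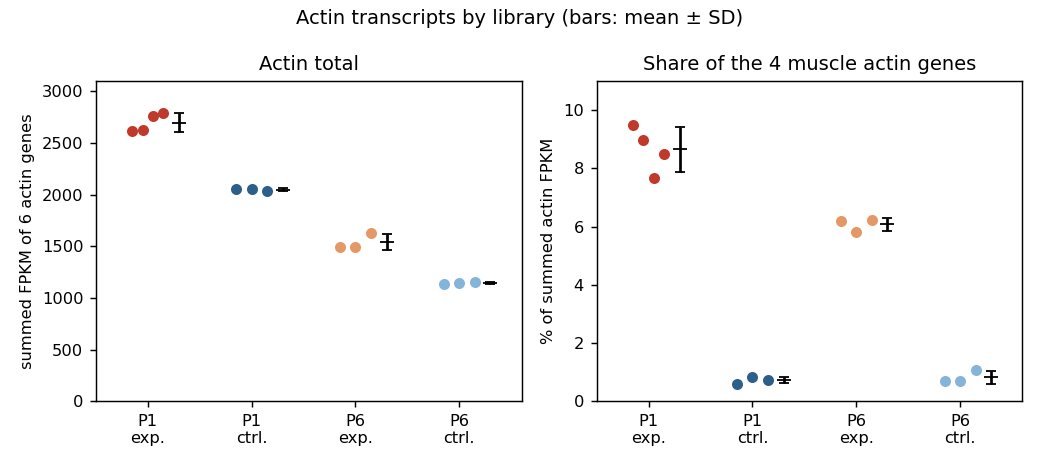
The left panel shows summed FPKM of the 6 actin genes and the right panel the percentage of that sum held by Acta1, Acta2, Actc1 and Actg2, per library with mean ± SD (P1 and P6, passages 1 and 6). Experimental libraries hold 7.67% to 9.47% at passage 1 and 5.83% to 6.23% at passage 6, above the control maxima of 0.847% and 1.09%.

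The other actins were not members. Acta1, the skeletal muscle actin, was at 5.06, 4.42, 4.93 and 5.44 FPKM in experimental libraries of passage 1, against 0.721, 0.523 and 0.466 FPKM in control libraries. The log2 difference was 1.93 ± 0.09, with every experimental library above every control. At passage 6 it was at 1.44, 1.34 and 1.21 FPKM in experimental libraries, against 0.245, 0.511 and 0.456 FPKM in control libraries, a log2 difference of 0.73 ± 0.11. Acta1 had the low level of Actc1 and passed the filter only through its experimental libraries, so that no p is given. Actb rose by 0.31 ± 0.04 at passage 1 (limma adjusted p = 0.000997) and 0.37 ± 0.07 at passage 6 (adjusted p = 0.0150), and Actg1 by 0.25 ± 0.05 (adjusted p = 0.0103) and 0.33 ± 0.05 (adjusted p = 0.00782). The passage 6 call of Actb ended without any 1 of the 3 controls, at adjusted p = 0.0628 to 0.0670, and the passage 1 call of Actg1 ended for controls 2 and 3 against experimental libraries 1 to 3, at adjusted p = 0.0999. With no filter on low values the calls of Actg1 ended at both passages (adjusted p = 0.114 and 0.0635) and that of Actb at passage 6 (adjusted p = 0.0774).

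Across 141 listed genes of the actomyosin system outside the members, 138 were in the tables and 93 were tested at passage 1, of which 39 rose and 9 fell, together 51.6% beside 30.4% of all genes (11.5% higher and 18.9% lower). At passage 6, 94 were tested, 18 rose and 7 fell, together 26.6% beside 19.8% of all genes (8.98% higher and 10.8% lower). Their median log2 difference was 0.18 at passage 1 and 0.03 at passage 6. Acta1 and Synpo2 are among the genes counted higher at both passages and passed the filter only through their experimental libraries. The passage 6 count depended on single libraries, as did the count over all genes. It was 8, 7 and 9 without control 1, 2 or 3, beside 767, 670 and 749 of all genes. Without experimental library 1 it was 48, beside 4257, and without experimental library 3 it was 16, beside 1582. With all libraries the counts were 25 and 2462. Restricted to passage 1 controls 2 and 3 against experimental libraries 1 to 3, the passage 1 count was 24 of 93 tested. These libraries all held 37.6 FPKM or more of cartilage markers. Over all genes 976 of 12172 were then called, against 3792 of 12469 with all libraries.

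Among myosin light chains and their regulators, 3 of 10 tested rose and 1 fell at passage 1 (40.0% called, beside 30.4% of all genes), and 1 of 11 rose and 2 fell at passage 6 (27.3%, beside 19.8%). Myl9's closest relatives, the nonmuscle regulatory light chains Myl12a and Myl12b, rose by 0.54 ± 0.07 and 0.62 ± 0.08 at passage 1 (adjusted p = 0.00125 for both), less than Myl9's 3.07. Myl6, the essential light chain of the same motors, averaged 207 ± 10.7 FPKM in experimental and 148 ± 5.91 FPKM in control libraries and rose by 0.48 ± 0.05 (adjusted p = 0.000739). At passage 6 Myl12a rose by 0.34 ± 0.08 (adjusted p = 0.0303), a call that ended without any 1 control or without experimental library 2 or 3 (adjusted p = 0.0505 to 0.104). Myl12b and Myl6 then differed by -0.20 ± 0.16 (adjusted p = 0.398) and -0.14 ± 0.13 (adjusted p = 0.454).

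Of the 3 named genes that control the phosphorylation of Myl9, none was called higher. Mylk, the kinase that phosphorylates Myl9 in smooth muscle, averaged 0.0502 FPKM in experimental and 0.119 FPKM in control libraries at passage 1 and was too low to test at either passage. Ppp1r14c, an inhibitor of myosin phosphatase, fell by 0.87 at passage 1 (SE 0.10, adjusted p = 0.000750), with 3.50 ± 0.563 FPKM in experimental and 7.19 ± 0.268 FPKM in control libraries. At passage 6 Ppp1r14c fell by 0.30 (SE 0.08, adjusted p = 0.0410), but not without any 1 control or experimental library 1 or 3 (adjusted p = 0.0513 to 0.139). Ppp1r12a, the phosphatase's targeting subunit, differed by 0.03 ± 0.06 at passage 1 (adjusted p = 0.673) and fell by 0.31 at passage 6 (SE 0.06, adjusted p = 0.0119), a call that ended without any 1 control at adjusted p = 0.0509 to 0.0621.

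Of the myosin heavy chains, the partners of Myl9 in the motor, 1 of 4 tested rose at passage 1 and 2 of 3 at passage 6, and none fell, too few to set against the 30.4% and 19.8% of all genes called. Myh9, the nonmuscle heavy chain, averaged 79.96 ± 7.75 FPKM in experimental and 54.3 ± 0.707 FPKM in control libraries at passage 1 and rose by 0.55 ± 0.07 (adjusted p = 0.00164). At passage 6 it averaged 83.2 ± 1.52 FPKM in experimental and 62.7 ± 1.51 FPKM in control libraries and rose by 0.40 ± 0.04 (adjusted p = 0.00256). Myh11, the smooth muscle heavy chain that normally works with Acta2 and Myl9, was at 0.390, 0.305, 0.313 and 0.331 FPKM in experimental libraries of passage 1, against 0, 0.0471 and 0.0404 FPKM in control libraries. Those levels did not overlap but were all under 1 FPKM, so Myh11 was not tested. Myh3, an embryonic muscle heavy chain, differed by -0.02 ± 0.04 at passage 1 (adjusted p = 0.792) and rose by 0.27 ± 0.07 at passage 6 (adjusted p = 0.0354), a call that ended without any 1 control or experimental library 2 or 3 (adjusted p = 0.0718 to 0.129).

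Among thin filament regulators, 7 of 16 tested rose and 3 fell at passage 1 (62.5% called, beside 30.4% of all genes), and 4 of 17 rose and 1 fell at passage 6 (29.4%, beside 19.8%). Cnn2, a calponin of nonmuscle cells that binds actin filaments, was nearest to Csrp1 and Actc1 in size: it averaged 51.5 ± 5.56 FPKM in experimental and 23.2 ± 0.958 FPKM in control libraries at passage 1 and rose by 1.11 ± 0.08 (adjusted p = 0.000139). The tropomyosins Tpm1, Tpm2 and Tpm4, which lie along the filament, rose by 0.67 ± 0.07, 0.69 ± 0.06 and 0.60 ± 0.06 at passage 1 (adjusted p = 0.000692, 0.000177 and 0.000367). Cnn1, the smooth muscle calponin, never exceeded 0.128 FPKM, and Tagln, an early and usually abundant smooth muscle gene, averaged 0.551 ± 0.232 FPKM in experimental and 0.304 ± 0.193 FPKM in control libraries at passage 1. Neither could be tested at passage 1, beside Acta2 at 213 FPKM in the same experimental cells.

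At passage 6 Tagln was at 0.383, 1.97 and 1.95 FPKM in experimental libraries, against 0.438, 1.11 and 0.265 FPKM in control libraries, a difference of 0.55 ± 0.33 (adjusted p = 0.268). The higher values were those of libraries 2 and 3, which carried liver, collagen and brain transcripts, and library 1 lay below the control mean of 0.605 FPKM. Tagln3, its neuronal relative, differed by -0.24 ± 0.11 at passage 1 (adjusted p = 0.130) and rose by 0.59 ± 0.09 at passage 6 (adjusted p = 0.00781). Tnni1, a troponin of slow muscle fibres, fell by 0.28 at passage 1 (SE 0.08, adjusted p = 0.0379) and by 0.44 at passage 6 (SE 0.09, adjusted p = 0.0148), with means between 1.04 and 2.21 FPKM in the 4 groups. The passage 1 call of Tnni1 ended without any 1 control or experimental library 1 or 2 (adjusted p = 0.0524 to 0.113), and its passage 6 call without control 1 or 2 (adjusted p = 0.0646 and 0.0591). Cnn2, Tpm1 and Tpm2 rose at passage 6 by 0.35 ± 0.07, 0.30 ± 0.07 and 0.27 ± 0.06 (adjusted p = 0.0159, 0.0300 and 0.0206), and these calls ended without any 1 control (adjusted p = 0.0540 to 0.110), without experimental library 2 for Tpm1 (adjusted p = 0.0562) and without library 3 for Tpm2 (adjusted p = 0.0512). Tpm4 differed by 0.15 ± 0.06 (adjusted p = 0.133).

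LIM proteins and filament anchors, the group of Csrp1 and Tgfb1i1, had 15 of 31 tested genes higher and 3 lower at passage 1 (58.1% called, beside 30.4% of all genes). At passage 6, 5 of 31 were higher and 1 lower, 19.4% and so near the 19.8% of all genes called. Vcl, vinculin of focal adhesions, averaged 23.1 ± 5.03 FPKM in experimental and 12.8 ± 0.760 FPKM in control libraries and rose by 0.79 ± 0.14 at passage 1 (adjusted p = 0.00590). Tns1 (tensin), Vasp, which promotes filament elongation, and Flna, the filament crosslinker filamin, rose by 0.74 ± 0.13, 0.69 ± 0.07 and 0.66 ± 0.05 (adjusted p = 0.00552, 0.000550 and 0.000110). For passage 1 controls 2 and 3 against experimental libraries 1 to 3 the calls of Vcl and Tns1 ended, at adjusted p = 0.0732 and 0.0708.

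At passage 6 Vcl, Tns1 and Vasp differed by 0.16 ± 0.07, 0.23 ± 0.08 and 0.07 ± 0.08 (adjusted p = 0.164, 0.0921 and 0.564). Synpo2, an actin-bundling protein of muscle, averaged 1.76 ± 0.126 FPKM in experimental and 0.897 ± 0.0518 FPKM in control libraries at passage 1, and 1.62 ± 0.0420 FPKM in experimental and 0.896 ± 0.0204 FPKM in control libraries at passage 6. All its controls were under 1 FPKM, so that it passed the filter only through its experimental libraries, and the log2 differences of 0.54 ± 0.07 and 0.47 ± 0.07 are given without a p. Flna, the anchor Actn4 and the LIM protein Pdlim3 rose by 0.42 ± 0.07, 0.33 ± 0.07 and 0.41 ± 0.08 at passage 6 (adjusted p = 0.01003, 0.0238 and 0.0170). These calls ended without control 2 or 3 for Flna (adjusted p = 0.0503 and 0.0511), without any 1 control or experimental library 2 or 3 for Actn4 (adjusted p = 0.0604 to 0.0909), and without control 1 or 2 for Pdlim3 (adjusted p = 0.0717 and 0.0727). At passage 1 Actn4 rose by 0.36 ± 0.05 (adjusted p = 0.00211), while Pdlim3 differed by -0.20 ± 0.16 (adjusted p = 0.354).

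Of Srf and the myocardin-family coactivators Mrtfa and Mrtfb, the RNA of Srf rose and that of neither coactivator was called. Srf was at 34.0, 38.3, 44.8 and 46.6 FPKM in experimental libraries of passage 1, against 26.6, 29.0 and 29.9 FPKM in control libraries. Every experimental library was above every control, and Srf rose by 0.50 ± 0.11 (adjusted p = 0.0109), a call that ended for controls 2 and 3 against experimental libraries 1 to 3 (adjusted p = 0.0944). At passage 6 it was at 26.6, 24.2 and 23.9 FPKM in experimental libraries, against 18.9, 17.9 and 17.5 FPKM in control libraries, and rose by 0.44 ± 0.06 (adjusted p = 0.00475). The coactivators Mrtfa and Mrtfb differed by 0.10 ± 0.05 (adjusted p = 0.187) and 0.01 ± 0.06 (adjusted p = 0.918) at passage 1, and by 0.07 ± 0.09 (adjusted p = 0.636) and -0.05 ± 0.07 (adjusted p = 0.605) at passage 6. Myocd was not analysed here.

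Limk2, a kinase that inactivates the filament-severing protein cofilin, rose by 0.53 ± 0.05 at passage 1 (adjusted p = 0.000438) and differed by 0.21 ± 0.07 at passage 6 (adjusted p = 0.0633). Pfn2, a profilin that binds actin monomers, rose by 0.32 ± 0.06 at passage 1 (adjusted p = 0.00499) and 0.28 ± 0.06 at passage 6 (adjusted p = 0.0194). The call at passage 1 ended for controls 2 and 3 against experimental libraries 1 to 3 (adjusted p = 0.0614), and that at passage 6 without any 1 control or experimental library 3 (adjusted p = 0.0511 to 0.0869). Scai, a known repressor of the MRTF coactivators, differed by -0.16 ± 0.08 at passage 1 (adjusted p = 0.153) and fell by 0.34 at passage 6 (SE 0.09, adjusted p = 0.0361), a call that ended without any 1 control or experimental library 2 or 3 (adjusted p = 0.0813 to 0.120).

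**Figure D3:**
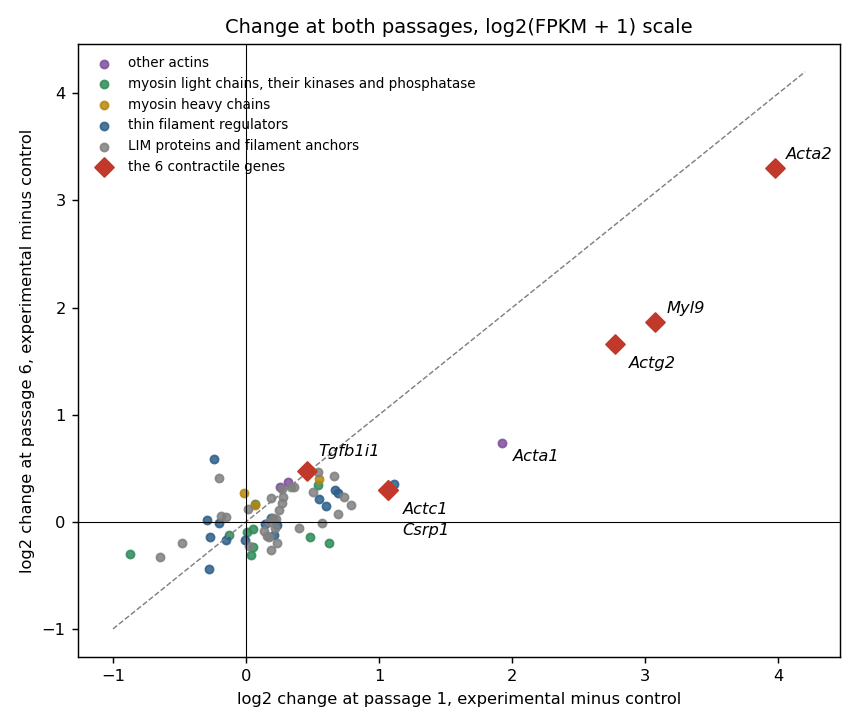
Each point is a gene, with its log2(FPKM + 1) difference, experimental minus control, at passage 1 on the x axis and at passage 6 on the y axis; diamonds are the 6 contractile genes, circles the genes of 5 of the lists tested at both passages, and the dashed line marks equal differences. Acta2, Myl9 and Actg2 lie outside the range of the listed genes, with Acta1 the nearest of these at 1.93 and 0.73, Tgfb1i1 lies on the dashed line with all libraries (at 0.27 on the y axis it would lie below it with passage 6 experimental library 1 alone), and Actc1 and Csrp1 coincide at 1.07 and 0.29 to 0.30.

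Smooth muscle markers were checked because Acta2, Actg2 and Myl9 are often read as a sign of that cell type. Of 13 listed markers other than the members, 12 were in the tables and 5 reached 1 FPKM in any library. Their sum was 13.8 to 15.8 FPKM in experimental and 8.78 to 9.24 FPKM in control libraries at passage 1, and 13.3 to 15.9 FPKM in experimental and 10.5 to 11.1 FPKM in control libraries at passage 6. Smtn, Synm, Itga8, Synpo2 and Des made up nearly all of it. The defining markers Myh11 and Cnn1, and also Lmod1, Pln, Kcnmb1, Ldb3 and Hhip, stayed under 1 FPKM in every library.

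**Figure D4:**
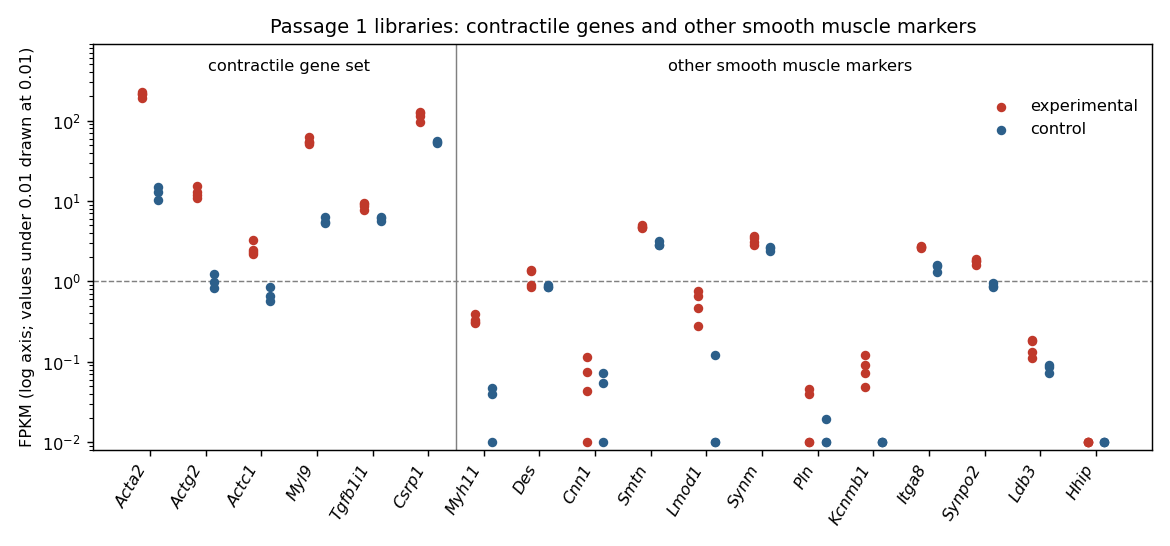
Points are FPKM per library of passage 1 on a log axis, experimental left of control for each gene, with values under 0.01 drawn at 0.01 and a dashed line at 1 FPKM. Acta2, Myl9 and Csrp1 are at 51.2 FPKM or more in experimental libraries, while Myh11 and Cnn1 are at most 0.390 and 0.114 FPKM. Actg2, Tgfb1i1 and Actc1 lie lower, at 10.8 to 15.3, 7.72 to 9.32 and 2.19 to 3.30 FPKM in experimental libraries. All experimental libraries lie above every control for Myh11, Smtn, Lmod1, Synm, Kcnmb1, Itga8, Synpo2 and Ldb3. The groups overlap for Des, Cnn1, Pln and Hhip.

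Other muscle lists were at low levels. At passage 1 skeletal muscle markers, of which 2 of 12 reached 1 FPKM and which include Acta1, summed to 9.41 to 10.6 FPKM in experimental and 5.75 to 6.39 FPKM in control libraries. Without Acta1 the sums overlapped, at 4.35 to 5.53 FPKM in experimental and 5.03 to 5.92 FPKM in control libraries. Cardiac markers, 4 of 12 of which reached 1 FPKM, summed to 11.6 to 14.0 FPKM in experimental and 9.28 to 10.0 FPKM in control libraries, most of it Tnnt2. At passage 6 the skeletal sums were 4.24 to 6.18 FPKM in experimental and 3.39 to 5.92 FPKM in control libraries, and the cardiac sums 6.35 to 7.47 FPKM in experimental and 6.64 to 6.77 FPKM in control libraries, with overlap in both. Fibroblast and pericyte markers, 10 of 12 of which reached 1 FPKM in at least 1 library of either passage, summed to 140 to 165 FPKM in experimental and 118 to 140 FPKM in control libraries at passage 1, most of it Fbln1. Dcn, Lum, Thy1 and Postn reached 1 FPKM only in passage 6 experimental libraries 2 and 3. The passage 6 sums of the fibroblast and pericyte markers were 323, 532 and 507 FPKM in experimental and 318 to 322 FPKM in control libraries. Their part in the members' levels was not tested.

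Some libraries carried transcripts of other tissues, in amounts that differed within and between the groups. Liver markers, of which 11 of 12 reached 1 FPKM in at least 1 library, had sums of 0.662, 205 and 165 FPKM in experimental libraries 1, 2 and 3 of passage 6, against 0.652 to 1.03 FPKM in control libraries, and Col1a1, a fibroblast collagen, was at 0.265, 90.8 and 82.1 FPKM in the same experimental libraries. Acta2 stood 3.26, 3.22 and 3.42 above the control mean in those 3 libraries (log2 scale), and Actg2 1.96, 1.34 and 1.68. Acta2 was thus highest in library 3 and Actg2 in library 1. Myl9 at 1.72, 1.87 and 2.00, Tgfb1i1 at 0.27, 0.52 and 0.63, and Csrp1 at 0.25, 0.27 and 0.38 were lowest in library 1. The part of these transcripts in the members' levels was not tested. Brain and myelin markers, 11 of 12 reaching 1 FPKM, summed to 25.9, 79.7 and 65.4 FPKM there, against 29.1 to 31.3 FPKM in control libraries.

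Colon epithelium markers, all 20 of which reached 1 FPKM, had sums of 197, 181, 7.07 and 87.0 FPKM among experimental libraries of passage 1, against 487, 214 and 235 FPKM in control libraries, and of 113, 6.30 and 6.87 FPKM among those of passage 6, against 119, 226 and 255 FPKM in control libraries. Cartilage markers, 11 of 12 reaching 1 FPKM, had sums of 37.6, 38.4, 42.2 and 16.7 FPKM among experimental libraries of passage 1, against 12.9, 54.0 and 52.7 FPKM in control libraries, and of 22.3 to 26.2 FPKM in experimental and 38.8 to 61.7 FPKM in control libraries at passage 6. For passage 1 controls 2 and 3 against experimental libraries 1 to 3 the log2 differences were 3.83 for Acta2, 2.79 for Actg2, 1.06 for Actc1, 3.05 for Myl9, 0.38 for Tgfb1i1 and 1.01 for Csrp1. With experimental library 1 alone at passage 6, they were 3.26 for Acta2, 1.72 for Myl9, 0.27 for Tgfb1i1 and 0.25 for Csrp1. The value of Tgfb1i1 at passage 6 thus moved by more than 1.5 times, to 0.27, against 0.48 with all 3 libraries.

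The genes whose pattern was most like the members were found by Pearson's r to the mean of the 6, over 13 libraries with passage means removed, among 7521 genes. Igfbp2, a binding protein of insulin-like growth factors, came first at 0.993, with means of 45.7 FPKM in experimental and 6.17 FPKM in control libraries at passage 1 and 26.9 FPKM in experimental and 9.19 FPKM in control libraries at passage 6. Ass1, an enzyme of arginine synthesis, followed at 0.991, then Ptgfrn at 0.990, the stress-activated kinase Mapkapk2 at 0.988, the serotonin-gated channel subunit Htr3a at 0.988, Tmem9 at 0.985, the procollagen proteinase Bmp1 at 0.985, Sh3kbp1 at 0.983, Arhgdib at 0.982 and the complement protease C1ra at 0.979. For Acta2 alone the order was Tmem9 at 0.993, Ass1 at 0.992, the collagen chaperone Fkbp10 at 0.992, Arhgdib at 0.990 and Mapkapk2 at 0.989.

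The 13 points fall into experimental and control groups, so such values mainly reflect the difference between them, and 178 of the 7521 genes, or 2.37%, reached 0.9. Among the members, r to the mean of the other 5 was 0.997 for Myl9, 0.990 for Actg2, 0.979 for Acta2, 0.925 for Csrp1, 0.909 for Tgfb1i1 and 0.898 for Actc1. Igfbp2 and Ass1 thus had a higher r to the mean of the 6 than Csrp1, Tgfb1i1 and Actc1 had to the mean of the other 5 members.

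The nearest protein-coding genes on both sides of the members were read from the GRCm38 annotation, 12 in all, of which 10 were tested at each passage. At passage 1, 3 rose and 2 fell, with a median difference of 0.02, and at passage 6, 2 rose and none fell, with a median of 0.14; of all genes, 30.4% and 19.8% were called. Fas, described below, is counted as risen at both passages although it passed the filter through its experimental libraries, so nothing is read from these counts. Stambpl1, 756 bases from Acta2, differed by -0.06 ± 0.07 at passage 1 (adjusted p = 0.573) and -0.04 ± 0.07 at passage 6 (adjusted p = 0.704). Fas, a death receptor 35075 bases on the other side of Acta2, averaged 1.94 ± 0.558 FPKM in experimental and 0.846 ± 0.119 FPKM in control libraries at passage 1 with a log2 difference of 0.66 ± 0.14. At passage 6 Fas averaged 2.01 ± 0.893 FPKM in experimental and 0.603 ± 0.0693 FPKM in control libraries with a log2 difference of 0.87 ± 0.20. Control means of Fas were under 1 FPKM, and it passed the filter through its experimental libraries, so no p is given.

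Tgif2, a transcriptional repressor 58348 bases from Myl9, averaged 6.97 ± 0.757 FPKM in experimental and 2.90 ± 0.426 FPKM in control libraries at passage 1 and rose by 1.03 ± 0.10 (adjusted p = 0.000436). At passage 6 it rose by 0.32 ± 0.07 (adjusted p = 0.0180), but not without any 1 control (adjusted p = 0.0664 to 0.0789). Dlgap4, 11056 bases on the other side of Myl9, differed by 0.05 ± 0.06 at passage 1 (adjusted p = 0.564) and 0.02 ± 0.10 at passage 6 (adjusted p = 0.882). The neighbours of Actg2, Dguok and Stambp, fell by 0.30 (SE 0.07, adjusted p = 0.0122) and 0.32 (SE 0.06, adjusted p = 0.00658) at passage 1, while Actg2 itself was higher there. The calls of both ended for controls 2 and 3 against experimental libraries 1 to 3 (adjusted p = 0.101 and 0.0748), and that of Dguok also without control 1 (adjusted p = 0.0540). Nav1, 112765 bases from Csrp1, rose by 0.42 ± 0.10 at passage 1 (adjusted p = 0.0139), but not without control 3 (adjusted p = 0.0548) or for controls 2 and 3 against experimental libraries 1 to 3 (adjusted p = 0.112).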

How the data were processed

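Poly(A) RNA of Neuro2a cells was sequenced in 13 libraries. The authors deposited gene-level FPKM, with a separate table for each passage. The genome mm10 and the tools HISAT2, StringTie, cutadapt, edgeR and DESeq2 are named, without versions, per the submitters' processing notes; how the FPKM were scaled is not given in the sources used here. Of 34857 genes, 34731 matched a symbol, and 1 gene with an empty cell was left out. Low FPKM did not fall on whole multiples of a common step (23.4% to 29.4% of them within 0.05 of one), so reads were not recovered, depth is unknown and precision rests on the spread between libraries. No libraries were identical (highest Pearson's r 0.995).

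For each passage alone, log2(FPKM + 1) was fitted here by limma 3.58.1 with an intensity trend (R 4.3.3), keeping genes that reached 1 FPKM in 3 or more of its libraries. The test was two-sided, adjusted by Benjamini-Hochberg over all tested genes at 0.05; "rose" and "fell" refer to it, and changes are on the log2(FPKM + 1) scale, which understates low genes. The difference between passages was a contrast of the within-passage changes over all 13 libraries. The fit was tested on simulated data. Annotation was GENCODE on GRCm38 and RefSeq promoters on GRCm38.p6; of each window, the 250 bases before the start were searched.

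The 6 members, the gene lists and the marker lists were chosen with earlier results of these data known. Named were all members, from each list up to 4 called genes with the largest change at each passage, a fixed set (the other actins, Srf, Mrtfa, Mrtfb, Myocd, Mylk, Myh11, Tagln, Cnn1), the 10 genes most like the member mean and 5 most like Acta2 (mean of at least 5 FPKM), and the nearest neighbours. Where 2 identifiers carried the symbol Myl12b, that with the higher mean was used. The counts of 1 gene list and some of its genes are not reported here. Alternatives were pseudocounts of 0.1 and 5, no filter or 5 FPKM, and equal totals, median-of-ratios and quantile scaling. Others were limma without trend, with robust settings or with array weights, a replicate block, and leaving out each library. At passage 1, controls 2 and 3 were also set against experimental libraries 1 to 3, which all carried cartilage markers. At passage 6, experimental libraries 2 and 3, with liver and brain transcripts, were left out. Libraries kept in these last settings still held transcripts of other tissues, such as cartilage or colon. Figures were drawn with matplotlib 3.10.9 in Python 3.11.15.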

Additional observations from a re-analysis of the deposited data

Results flagged for a closer look

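In passage 1 experimental library 1 the summed level of cardiac muscle markers was 14.0 FPKM, apart from 11.6 to 11.8 FPKM in the other 3 experimental libraries. Actc1, at 3.30 FPKM, was also highest in library 1, as were Acta2, Actg2 and Myl9. Tgfb1i1 and Csrp1 were highest in library 4. The cardiac sum of library 1 was the 1 value far from the others among 52 groups of 4 examined. Chance gives about 1 in 20 such groups.

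For 15 named genes that are not members, the change at passage 6 differed from that at passage 1 (limma contrast over 13 libraries, adjusted over 13019 genes, of which 14.7% were called). Most genes were named because they were called in these same data, so nothing is read from the number 15. Of the 95 listed genes tested in this contrast, 20 were called. The difference, passage 6 minus passage 1, was -1.19 for Acta1, given without a p because Acta1 passed the filter only through experimental libraries. The difference was also negative for Myl12b at -0.82 (adjusted p = 0.0131), Cnn2 at -0.76 (adjusted p = 0.00197), Tgif2 at -0.71 (adjusted p = 0.00370), Vcl at -0.63 (adjusted p = 0.0368), Myl6 at -0.62 (adjusted p = 0.0141), Vasp at -0.62 (adjusted p = 0.00428), Tpm4 at -0.45 (adjusted p = 0.00550), Tpm2 at -0.42 (adjusted p = 0.00547), Tpm1 at -0.37 (adjusted p = 0.0366), Ppp1r12a at -0.35 (adjusted p = 0.0128) and Limk2 at -0.32 (adjusted p = 0.0213). It was positive for Tagln3 at 0.83 (adjusted p = 0.00547), Ppp1r14c at 0.57 (adjusted p = 0.0149) and Myh3 at 0.29 (adjusted p = 0.0324). The log2 difference of Acta1 was thus smaller at passage 6 than at passage 1, as were those of Acta2, Actg2 and Myl9, and all of these are given as description only.

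Without single libraries the difference was no longer called for Limk2 (passage 1 control 2 or 3, or passage 6 control 2, adjusted p = 0.0516 to 0.0574), for Myh3 (any 1 control of either passage, passage 1 experimental library 1 or 4, or passage 6 experimental library 2 or 3, adjusted p = 0.0502 to 0.0821), for Tpm1 (any 1 control, passage 1 experimental library 1, 2 or 4, or passage 6 experimental library 1 or 2, adjusted p = 0.0514 to 0.0853) and for Vcl (any 1 control, passage 1 experimental library 4, or passage 6 experimental library 1 or 2, adjusted p = 0.0569 to 0.0857). With passage 6 experimental libraries 2 and 3 left out it was also lost for Myl12b, Myl6, Ppp1r12a, Ppp1r14c and Tagln3 (adjusted p = 0.0513 to 0.0818), where the lone library is taken to vary like the other groups. For passage 1 controls 2 and 3 against experimental libraries 1 to 3 it was lost for Ppp1r12a and Ppp1r14c (adjusted p = 0.0676 and 0.0718), and for Limk2, Myh3, Tpm1 and Vcl (adjusted p = 0.0589 to 0.138).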

How the results depend on the processing

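All members tested stayed higher in experimental libraries under every alternative that gave a value for them. Their median log2 difference, 1.92 at passage 1 and 1.07 at passage 6, was 2.50 and 1.52 with a pseudocount of 0.1, and 1.29 and 0.49 with 5. Leaving out a library gave 1.88 to 1.97 at passage 1 and 1.02 to 1.14 at passage 6.

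Counts of called genes moved more. Over all genes they were 3792 and 2462. At passage 6, no filter gave 1286 genes and 11 listed genes, and array weights gave 3538 genes and 44 listed genes. Leaving out a library gave 2053 to 4069 genes at passage 1 and 670 to 4257 at passage 6, 33 to 51 and 7 to 48 listed genes, and 14 to 24 listed genes whose change differed between passages, against 20 with all. Passage 1 controls 2 and 3 against experimental libraries 1 to 3 gave 976 genes, 24 listed genes and 9 differing ones; passage 6 without experimental libraries 2 and 3 gave 13 differing ones and 23 listed genes, and ended the passage 6 calls of Myh3, Myl12a, Scai, Tgif2, Tnni1, Tpm1 and Tpm2 (adjusted p = 0.0538 to 0.156). Of 67 named calls, 32 held under all alternatives. Both counts include calls of Acta1, Synpo2 and Fas, for which no p is given here. Most of the genes were named because they were called in these data, so nothing is read from these counts. No filter ended the passage 6 calls of Actb, Actg1, Ppp1r14c, Myl12a, Myh3, Cnn2, Tpm1, Tpm2, Tnni1, Pdlim3, Actn4, Scai, Pfn2, and Tgif2 and the passage 1 calls of Actg1 and Tnni1 (adjusted p = 0.0507 to 0.118), and the differences of Myh3, Tpm1 and Vcl (adjusted p = 0.0650 to 0.109). Another scaling ended the calls of Tnni1 at passage 1, of Ppp1r14c, Myh3 and Scai at passage 6 and the difference of Myh3 (adjusted p = 0.0589 to 0.0955). The share of calls that were higher at passage 1, 37.8%, was 48.9% with equal totals, 55.7% with median-of-ratios scaling and 50.2% with quantile normalization; at passage 6, 45.5% became 57.6% with median-of-ratios scaling. The causes of these shifts were not tested.

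The replicate numbers of the labels did not pair the libraries: same-numbered deviations had r of -0.19 to 0.24 at passage 1, and of -0.07 to 0.03 at passage 6, and 1 of 3 and 0 of 3 experimental libraries were closest to their own number. With the number as a replicate block, in which passage 1 experimental library 4 has no partner, 1813 genes and 31 listed genes were called at passage 1, 1438 genes and 17 listed genes at passage 6, and 7 listed genes differed between passages. The member median at passage 1 was then 1.96. The block ended the passage 1 calls of Actg1, Tnni1, Dguok, Stambp and Nav1, the passage 6 calls of Ppp1r14c, Myh3, Pdlim3, Actn4, Scai, Pfn2 and Tgif2, and the differences of Ppp1r14c, Myl12b, Myl6, Ppp1r12a, Myh3, Tpm1, Vcl and Limk2 (adjusted p = 0.0506 to 0.110 in all).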
